A study of Mus musculus with 8 samples.

Results

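The genes followed here are 9 members of the RAS to MAPK pathway in mouse mammary cell lines, the RAS genes Hras and Nras, the dual-specificity phosphatase genes Dusp1, Dusp4, Dusp5 and Dusp6, and the Sprouty genes Spry1, Spry2 and Spry4. They were taken by symbol from the 25413 genes of the count table, with earlier results of these data known. RAS proteins are small GTPases that, when loaded with GTP, start a relay of RAF, MEK and ERK kinases from growth factor receptors to the nucleus. ERK activity induces some of its own brakes, among them dual-specificity phosphatases, which take phosphate off MAP kinases, and Sprouty proteins, which dampen the signal between receptor and RAF. In mammary epithelium this pathway is known for its part in proliferation and duct branching.

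Spheroids, rounded aggregates of cells, of EpH4 (genotype labelled WT) and of EpH4-AS (labelled AS-transformed, described as malignant) were grown either untreated or with PM2.5, fine particulate matter of the air. Each of the 4 groups had 2 libraries of polyadenylated RNA, and the labels name 1 batch for all 8. Each line stands for itself, and the labels used here give no PM2.5 dose or time. Nothing in the labels tells separate cultures from repeat libraries, so the p values speak of the scatter among these libraries alone, and that scatter may be technical.

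Library totals were 24608176 to 27765982 counts in EpH4 and 15393256 to 18334052 in EpH4-AS. The labelled cell type is mammary epithelial, but 10 luminal and general epithelial marker genes summed to only 1.42 to 2.66 CPM (a gene's counts scaled to a common library total) in any library, with Krt19 at 0 in all 8 and Cdh1, Krt8, Krt18 and Epcam under 1 CPM in each. A list of 9 fibroblast markers summed to 4086 to 5115 CPM, led by Vim, but its genes were uneven, also between lines. In each group 6 or 7 of the 9 reached 1 CPM in both libraries. Thy1 lay under 1 CPM in each library, and group means were 0.0933 to 5.07 CPM for Col1a1 and 0.453 to 3.21 CPM for Lum. The lines are therefore called by their names below. Mitochondrially encoded genes held a mean of 2.47% of counts in untreated and 4.63% in exposed EpH4, against 0.233% and 0.286% in EpH4-AS.

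All 9 members passed the filter on low counts, as did 13716 of 25413 genes. Set per length of transcript, as the authors' deposited RPKM (reads scaled to exon length and library size), Spry2 had the highest level of the 9 in each group, from 31.8 ± 0.220 in untreated EpH4 to 21.3 ± 3.55 in exposed EpH4-AS (SD, n = 2). Spry4 was the lowest in each, at 0.140 to 0.208 RPKM, a level that rests on 9 to 24 counts per library. In untreated EpH4, Dusp4 (22.7 RPKM), Nras (21.4 RPKM) and Dusp5 (20.6 RPKM) followed Spry2, and neighbours among those 3 overlapped between libraries. Dusp1 stood eighth of 9 by RPKM in both EpH4 groups (6.71 untreated and 5.04 exposed). In untreated EpH4-AS it stood behind only Spry2 and Nras, at 14.4 RPKM. Levels from here on are CPM after TMM scaling, which compare 1 gene across libraries and not 1 gene with another.

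**Figure D1:**
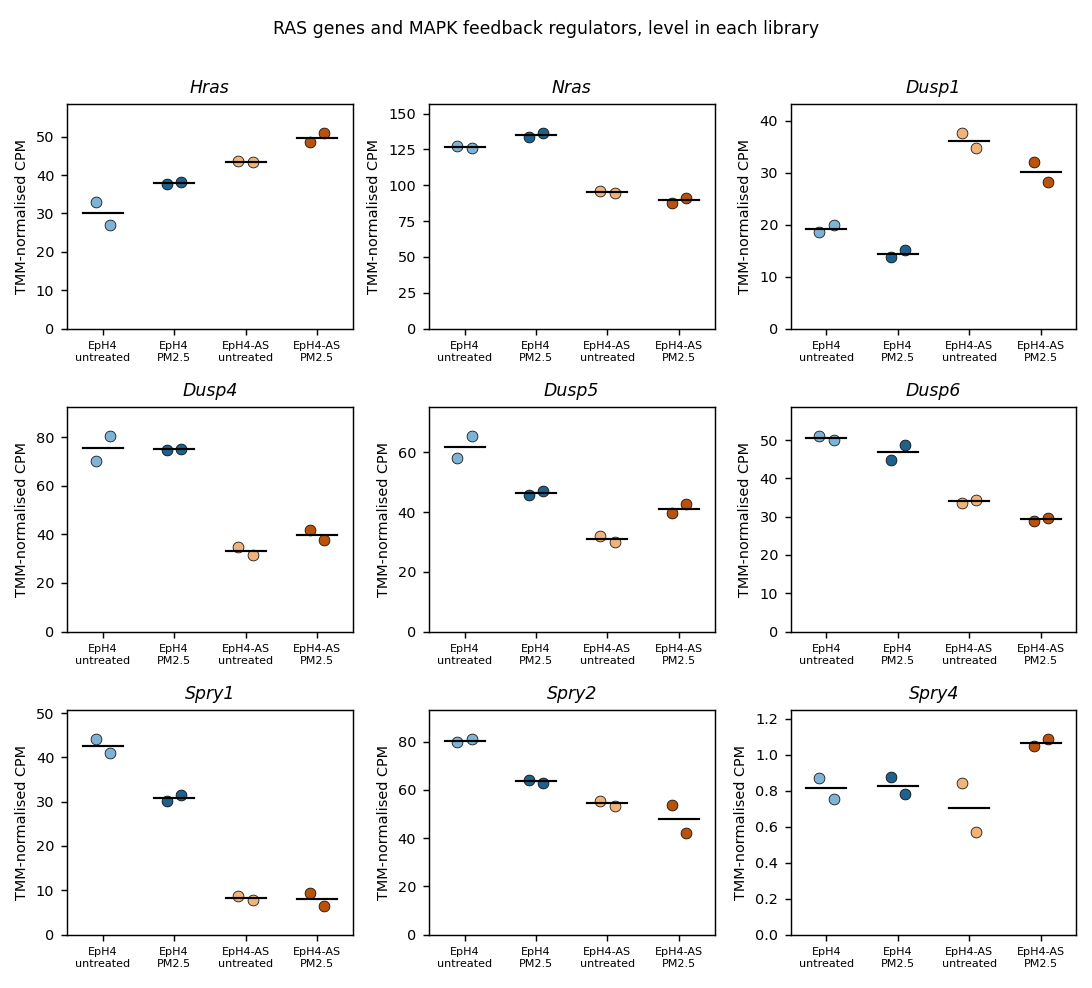
Level of each of the 9 genes (vertical axis, TMM-normalised CPM, from 0) in each of the 8 libraries, by line and exposure (horizontal axis). Points are libraries and lines are group means. Dusp5 fell with PM2.5 in EpH4 and rose with PM2.5 in EpH4-AS, and Spry1 lay at 30.1 to 44.1 CPM in EpH4 against 6.51 to 9.34 CPM in EpH4-AS.

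The first comparison asked how exposure to PM2.5 changed these genes in EpH4. Hras rose, and Dusp1, Dusp5, Spry1 and Spry2 fell, each by 1.26-fold to 1.38-fold. That is 5 of 9 called at an adjusted p under 0.05 (edgeR quasi-likelihood test, Benjamini-Hochberg over all genes tested), where 27.2% of all tested genes were called. Of the 9, 4 were lower, against 12.9% of all genes, and 1 was higher, against 14.3%. The median log2 fold change of the 9 was -0.11 and that of all tested genes 0.00. In bulk RNA, a smaller share of cells with a transcript and less of it per cell cannot be told apart.

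Hras, a RAS GTPase (ENSMUSG00000025499, GRCm39 chromosome 7, 140769018 to 140773918, minus strand), measured 33.1 and 27.0 CPM in untreated and 37.6 and 38.2 CPM in exposed EpH4. Both exposed libraries lay above both untreated ones, of which the second was the lower. The log2 fold change was 0.33 ± 0.08 (standard error, adjusted p = 0.00808). Without the second untreated library it was 0.20 and missed the threshold, with an adjusted p of 0.0775. Nras, the other RAS GTPase (ENSMUSG00000027852, chromosome 3, 102965601 to 102975230, plus strand), measured 127 and 126 CPM untreated and 134 and 136 CPM exposed. Its log2 fold change of 0.09 had a 95% interval from -0.01 to 0.20 and missed the threshold (adjusted p = 0.185).

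Dusp5, a nuclear phosphatase of ERK (ENSMUSG00000034765, chromosome 19, 53517540 to 53530862, plus strand), measured 58.2 and 65.3 CPM in untreated EpH4 and 45.6 and 47.0 CPM after exposure. The groups did not overlap, and the log2 fold change was -0.41 ± 0.07 (adjusted p = 0.000551). Dusp1, which acts on p38 and JNK as well as ERK (ENSMUSG00000024190, chromosome 17, 26724564 to 26781102, minus strand), went from 18.7 and 19.8 CPM to 13.8 and 15.0 CPM. Its fall of similar size was a log2 fold change of -0.42 ± 0.09 (adjusted p = 0.00364).

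Dusp6, a cytoplasmic phosphatase selective for ERK (ENSMUSG00000019960, chromosome 10, 99099093 to 99103351, plus strand), stood at 51.0 and 50.0 CPM untreated and 44.7 and 48.8 CPM exposed. Both exposed libraries were the lower, yet the log2 fold change of -0.11 (95% interval -0.24 to 0.02) missed the threshold (adjusted p = 0.208). Dusp4, another nuclear phosphatase (ENSMUSG00000031530, chromosome 8, 35274451 to 35287048, plus strand), measured 70.5 and 80.4 CPM untreated and 74.9 and 75.2 CPM exposed. Its groups overlapped, with a log2 fold change of -0.01 and a 95% interval from -0.16 to 0.15 (adjusted p = 0.983).

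Among the Sprouty genes, Spry1 (ENSMUSG00000037211, chromosome 3, 37694096 to 37698747, plus strand) measured 44.1 and 40.9 CPM in untreated and 30.1 and 31.6 CPM in exposed EpH4. The log2 fold change of -0.46 ± 0.09 was the largest fall of the 9 (adjusted p = 0.00233). Spry2 (ENSMUSG00000022114, chromosome 14, 106129381 to 106134253, minus strand) fell from 79.8 and 80.9 CPM to 64.2 and 62.8 CPM, a log2 fold change of -0.34 ± 0.08 (adjusted p = 0.00592). Spry4 (ENSMUSG00000024427, chromosome 18, 38719300 to 38734468, minus strand) lay at 0.756 to 0.876 CPM in the 4 EpH4 libraries. At that depth its log2 fold change of 0.02 had a 95% interval from -0.69 to 0.74 (adjusted p = 0.988), so a moderate change was not detectable.

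The untreated and exposed EpH4 libraries of 7 of the 9 genes did not overlap, where 61% of all tested genes also did not. The share of mitochondrially encoded counts was higher in the exposed libraries beside these results. The summed basal and myoepithelial markers were higher too (7 genes, 3.82 to 4.22 CPM untreated and 8.92 to 9.54 CPM exposed). That was mainly Krt14, at a mean of 3.17 CPM untreated and 8.59 CPM exposed. Every other gene of the list lay under 1 CPM in each EpH4 library. By mean, Trp63 and Cnn1 were lower and Krt17 and Acta2 higher after exposure. With the mitochondrially encoded genes left out, 5 of 9 members were called as before, but that fit mainly rescales the libraries. The part of the higher mitochondrial share or of the Krt14 rise in these results was not tested.

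The same question was asked in EpH4-AS. Dusp5 rose, and it was the 1 member of 9 called, where 11.1% of all tested genes were called 6.39% higher and 4.75% lower. It measured 32.0 and 30.1 CPM in untreated and 39.6 and 42.6 CPM in exposed EpH4-AS, with no overlap. The log2 fold change was 0.40 ± 0.08 (adjusted p = 0.00509). The call was lost without the second untreated library (log2 0.37, adjusted p = 0.0867) or without the second exposed library (log2 0.36, adjusted p = 0.0639) of this line. Across the fits that each left out 1 library, 0 to 4 members were called, 4 without the first and 3 without the second untreated EpH4 library, and 2 without the first exposed EpH4-AS library. With only the 2 groups compared in the fit, 5 members were called in EpH4-AS (Hras, Dusp1, Dusp4, Dusp5 and Dusp6) and 5 in EpH4, and 2995 and 2558 genes in all.

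Another 4 members had an unadjusted p under 0.05 in EpH4-AS and missed the adjusted threshold. Dusp1 went from 37.6 and 34.8 CPM to 32.0 and 28.3 CPM (log2 -0.27 ± 0.08, adjusted p = 0.0589). Dusp4 went from 34.9 and 31.6 CPM to 42.0 and 37.8 CPM (log2 0.26 ± 0.08, adjusted p = 0.0653). Dusp6 went from 33.6 and 34.4 CPM to 28.8 and 29.7 CPM (log2 -0.21 ± 0.07, adjusted p = 0.0738). For each of these 3 phosphatases the exposed libraries lay wholly to one side of the untreated ones. Hras, the fourth, measured 43.7 and 43.4 CPM untreated and 48.6 and 50.9 CPM exposed (log2 0.19, adjusted p = 0.166).

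Of the Sprouty genes of EpH4-AS, none was called. Spry2 measured 55.5 and 53.4 CPM untreated but 53.8 and 42.1 CPM exposed, so the groups overlapped (log2 -0.19, 95% interval -0.38 to 0.00, adjusted p = 0.21). Spry1 was low throughout, at 8.73 and 7.72 CPM untreated and 9.34 and 6.51 CPM exposed (log2 -0.06, 95% interval -0.39 to 0.27, adjusted p = 0.859). Spry4 measured 0.843 and 0.569 CPM untreated and 1.05 and 1.09 CPM exposed, from 9 to 20 counts (log2 0.59, 95% interval -0.23 to 1.41, adjusted p = 0.379). Nras measured 96.3 and 94.8 CPM untreated and 87.8 and 91.1 CPM exposed (log2 -0.10, 95% interval -0.21 to 0.02, adjusted p = 0.283). Untreated and exposed libraries did not overlap for 7 of 9 members, against 57.5% of all tested genes. The median log2 fold change of the 9 was -0.06, beside 0.00 for all. Adipocyte markers of this line summed to 1381 to 1423 CPM untreated and 1113 to 1121 CPM exposed. Most of the sum was Lpl, at a mean of 1081 and 899 CPM. Cd36 went from a mean of 49.9 to 12.8 CPM and Pparg from 256 to 199.7 CPM. Adipoq and Plin1, of the same list, lay under 1 CPM in each library. The part of the lower marker sum in the results was not tested.

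**Figure D2:**
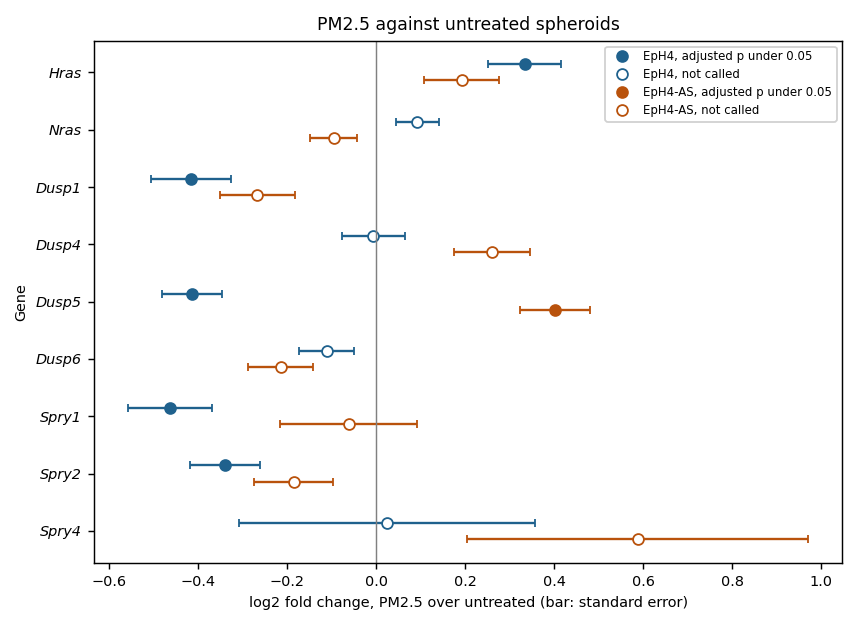
Log2 fold change of exposed over untreated spheroids (horizontal axis) for the 9 genes (vertical axis) in EpH4 (blue) and EpH4-AS (orange). Bars are standard errors, and filled points passed an adjusted p of 0.05. Dusp5 is called in both lines, at -0.41 in EpH4 and 0.40 in EpH4-AS.

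Whether the response to PM2.5 differed between the lines was tested directly, as the interaction of line and exposure. Dusp5 alone of the 9 was called, with a log2 difference of 0.82 ± 0.10 between its effect in EpH4-AS and that in EpH4 (adjusted p = 0.000219). It ranked 100 of 13716 genes by p. Of all tested genes 14.1% were called, 7.6% in this direction and 6.49% in the other. The Dusp5 call held in the 21 alternative fits run, with adjusted p from 1.46e-12 to 0.0151. Leaving out any single library gave a log2 difference of 0.73 to 0.90.

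For the other 8 genes the difference between lines missed the threshold. Nras (-0.19, 95% interval -0.34 to -0.03, adjusted p = 0.0984), Dusp4 (0.27, 95% interval 0.03 to 0.50, adjusted p = 0.128) and Spry1 (0.40, 95% interval 0.01 to 0.79, adjusted p = 0.163) had an unadjusted p under 0.05. Thus the falls of Dusp1, Spry1 and Spry2 and the rise of Hras, called in EpH4 and not in EpH4-AS, were not shown to differ between lines. For Dusp1 the interval of the difference ran from -0.12 to 0.41, for Spry2 from -0.10 to 0.41 and for Hras from -0.39 to 0.11. Without the first untreated EpH4 library 3 of 9 members were called (Hras, Dusp4 and Dusp5), and without the second exposed EpH4-AS library also 3 (Dusp5, Spry1 and Spry2).

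The promoter sequences below are shown because the PM2.5 effect on Dusp5 differed in sign between lines while its relatives Dusp1 and Dusp6 had negative values in both (Dusp4, at -0.01 in EpH4 and 0.26 in EpH4-AS, did not), and because Spry1 had the largest line difference of the 9. They are RefSeq sequences on GRCm38.p6, an earlier build than that of the counts, and 7 of the 9 symbols matched a promoter there (Dusp4 and Spry4 did not). Each window holds bases 250 to 51 before the start annotated by RefSeq, 5′ to 3′ on the gene's strand. That start need not be the start of the gene span in the count table, which is given above. Capitals mark matches, on either strand, to an AP-1 site (TGANTCA), a cAMP response element (TGACGTCA), an ETS site of the form CGGAAG or a CArG box, the site of serum response factor. Shorter or other forms of these sites were not searched. The windows are chr19:53528895-53529094 (plus strand) for Dusp5, chr17:26508523-26508722 (minus strand) for Dusp1, chr10:99262981-99263180 (plus strand) for Dusp6 and chr3:37639697-37639896 (plus strand) for Spry1.
Dusp5: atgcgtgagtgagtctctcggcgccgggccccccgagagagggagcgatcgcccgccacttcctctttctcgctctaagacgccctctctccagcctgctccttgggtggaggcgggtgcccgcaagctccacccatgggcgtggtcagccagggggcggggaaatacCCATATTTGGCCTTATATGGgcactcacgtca
Dusp1: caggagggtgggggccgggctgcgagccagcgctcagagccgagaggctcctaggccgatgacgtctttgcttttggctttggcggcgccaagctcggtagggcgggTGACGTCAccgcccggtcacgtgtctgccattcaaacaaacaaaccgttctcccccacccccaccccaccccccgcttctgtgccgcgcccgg
Dusp6: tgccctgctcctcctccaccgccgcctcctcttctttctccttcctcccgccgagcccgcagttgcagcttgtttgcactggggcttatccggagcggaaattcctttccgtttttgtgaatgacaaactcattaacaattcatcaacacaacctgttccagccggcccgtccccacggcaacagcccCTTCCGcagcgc
Spry1: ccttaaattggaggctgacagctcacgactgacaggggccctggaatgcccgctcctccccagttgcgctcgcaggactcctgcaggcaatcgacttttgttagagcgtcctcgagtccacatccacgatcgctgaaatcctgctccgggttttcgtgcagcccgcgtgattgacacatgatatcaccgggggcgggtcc
Dusp5 held a pair of adjoining CArG boxes, whose first bases lie 82 and 72 bases before the start. A CArG box occurs in 1.16% of 32851 windows of this length. Dusp1 held a cAMP response element at 143 bases, a motif of 0.828% of windows, and Dusp6 a CGGAAG site on the reverse strand at 62 bases, a motif of 9.25% of windows. The Spry1 window and those of Hras, Nras and Spry2 held none of the 4 motifs, and no member's window held the AP-1 site, found in 5.57% of windows. These matches describe letters only, and no binding was measured.

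The lines were then compared with each other. In untreated spheroids Hras and Dusp1 were higher in EpH4-AS, and Nras, Dusp4, Dusp5, Dusp6, Spry1 and Spry2 were lower. That makes 8 of 9 called, where 89.2% of all tested genes were called (43.6% higher and 45.7% lower), so the count is near the background. The median size of the log2 difference was 0.57 for the 9 genes and 1.18 for all tested genes. The 2 lines share no library in this comparison, but its untreated libraries also enter the PM2.5 effects above.

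Spry1 differed most. From the values above, its EpH4-AS libraries all lay below its EpH4 libraries, 5.16-fold lower in untreated spheroids (log2 -2.37 ± 0.12, adjusted p = 6.19e-11) and 3.91-fold lower in exposed ones (log2 -1.97 ± 0.12, adjusted p = 6.97e-10). By size the untreated difference ranked 4081 of 13716 genes. A predicted gene on the opposite strand, Gm42922, overlaps Spry1 and measured 0.054 to 1.69 CPM. In an annotation on the earlier build GRCm38 the pair shares 710 of the 2906 exon bases of Spry1. Counting by strand is not stated in the sources used here, so reads of the pair may be mixed.

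Of the phosphatases, Dusp4 was 2.27-fold lower (log2 -1.18 ± 0.08, adjusted p = 1.67e-09) and Dusp5 1.98-fold lower (log2 -0.99 ± 0.07, adjusted p = 6.33e-09) in untreated EpH4-AS. Dusp6 was 1.49-fold lower (log2 -0.57 ± 0.07, adjusted p = 1.1e-06). Dusp1 went the other way, 1.88-fold higher (log2 0.91 ± 0.09, adjusted p = 9.06e-08), with no EpH4 library reaching the lowest EpH4-AS library. Of the RAS genes, Hras was 1.45-fold higher (log2 0.53 ± 0.08, adjusted p = 2.97e-05) and Nras 1.32-fold lower (log2 -0.40 ± 0.05, adjusted p = 2.46e-06). Spry2 was 1.48-fold lower (log2 -0.56 ± 0.08, adjusted p = 1.48e-05). Spry4 did not pass (log2 -0.20, 95% interval -1.01 to 0.61, adjusted p = 0.618).

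With PM2.5 the same 8 genes were called in the same directions, where 89% of all tested genes were called (43.5% higher and 45.5% lower). Dusp1 was 2.09-fold higher (log2 1.06 ± 0.09, adjusted p = 2.74e-08), and Dusp4 was 1.88-fold lower (log2 -0.91 ± 0.08, adjusted p = 2.48e-08). Dusp5, which had moved in opposite directions with exposure, was at 39.6 and 42.6 CPM in exposed EpH4-AS and 45.6 and 47.0 CPM in exposed EpH4. The groups still did not overlap, but the log2 difference was -0.17 ± 0.07 (adjusted p = 0.0356) against -0.99 without exposure. That call was kept in 9 of 22 alternative fits. It was lost in the other 13, among them limma-trend on log2(RPKM + 1) (log2 -0.01, adjusted p = 0.874), total gene reads (log2 -0.06, adjusted p = 0.42) and DESeq2 (log2 -0.18, adjusted p = 0.0901). Left out singly, either exposed EpH4 library, either untreated EpH4-AS library or the first exposed EpH4-AS library also ended it, with log2 from -0.11 to -0.20. Spry4 (log2 0.36, 95% interval -0.37 to 1.09) again missed the threshold.

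Untreated libraries of the lines did not overlap for 8 of 9 members (94.5% of all tested genes) and exposed ones for 9 of 9 (94.3%). The median untreated line difference was -0.05 over the 13716 tested genes. On the authors' RPKM, as log2(RPKM + 1), it was 0.18 over the 12362 genes past a minimum of 0.5 RPKM. Without that minimum it was 0 over 19932 genes. On the log2(RPKM + 1) scale the 8 differences kept their sign without exposure, from 1.0 for Dusp1 to -1.83 for Spry1. Adipocyte markers also differed between lines (6 genes, 142 to 171 CPM in EpH4 and 1113 to 1423 CPM in EpH4-AS). They were mainly Lpl, with Adipoq and Plin1 under 1 CPM in each library. The leukocyte list differed too (5 genes, 172 to 220 CPM and 37.6 to 41.3 CPM, nearly all Cd68, with Ptprc near 0). Genes of the fibroblast list differed within similar sums. In untreated EpH4 and EpH4-AS, mean Col1a2 was 1067 and 34.4 CPM, Pdgfra 362 and 59.2 CPM and Dcn 1124 and 392 CPM. Vim (2068 and 3653 CPM), Col3a1 (0.749 and 45.1 CPM) and Lum (0.589 and 3.21 CPM) went the other way. The part of these marker genes in the line differences was not tested.

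**Figure D3:**
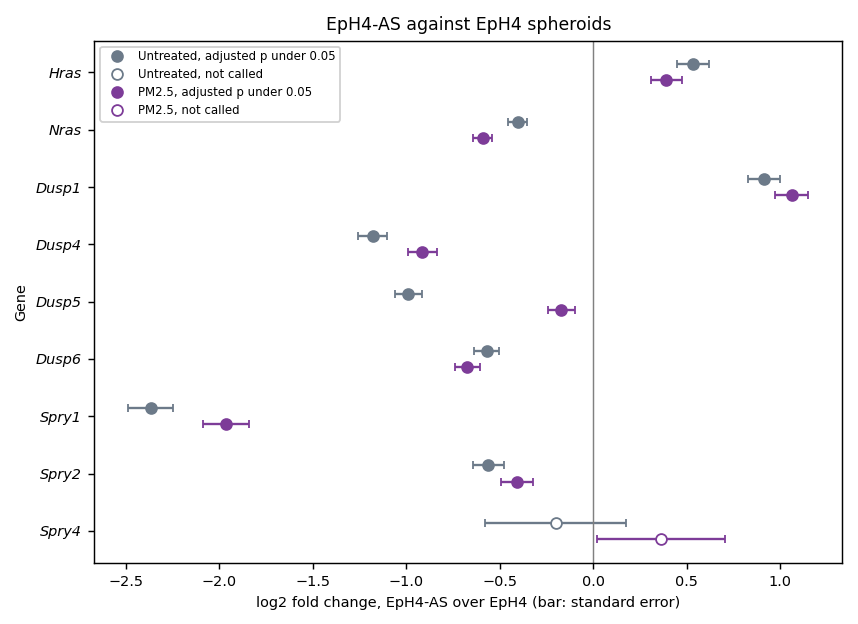
Log2 fold change of EpH4-AS over EpH4 (horizontal axis) for the 9 genes (vertical axis) in untreated (grey) and exposed (purple) spheroids. Bars are standard errors, and filled points passed an adjusted p of 0.05. Hras and Dusp1 lie above 0 and 6 genes below 0, and the Dusp5 difference went from -0.99 untreated to -0.17 exposed.

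Reads assigned to a gene but lying outside its exons separated some of the members by line. For Dusp1 they were 25.1 ± 2.43% and 31.0 ± 4.55% of gene reads in untreated and exposed EpH4, against 2.0 ± 0.0591% and 2.91 ± 0.101% in EpH4-AS (SD, n = 2). For Dusp5 they were 16.5 ± 0.417% and 12.7 ± 1.70%, against 3.55 ± 0.138% and 3.20 ± 0.499%. Over all genes the shares were 11.8% and 11.96% in EpH4 and 3.47% and 3.51% in EpH4-AS. Dusp6 differed in the opposite sense, at 2.40% and 2.15% in EpH4 and 3.08% and 3.51% in EpH4-AS. Dusp1 is annotated over 56539 bp and overlaps Ergic1 on the opposite strand, so some Dusp1 reads may belong to Ergic1. In an annotation on the earlier build GRCm38 they share 11 of the 3311 exon bases of Dusp1. Ergic1 measured 146 to 169 CPM in EpH4 and 178 to 214 CPM in EpH4-AS. Its part in the Dusp1 values was not tested. With all gene reads in place of exon counts, the untreated Dusp1 difference was 0.77 on the log2 scale.

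Other genes of the pathway were taken from 6 textbook lists of 53 genes, of which 44 passed the filter on low counts. With PM2.5, 12 rose, 7 fell and 25 did not pass in EpH4, and 6 rose, 2 fell and 36 did not pass in EpH4-AS. Of all tested genes, 14.3% rose and 12.9% fell in EpH4, and 6.39% rose and 4.75% fell in EpH4-AS, and the counts of single lists below are to be read beside these shares. The list median was 0.04 in EpH4 and -0.01 in EpH4-AS on the log2 scale, beside 0.00 for all genes in each. The interaction was called higher for 8 and lower for 8 of the 44, beside 7.6% and 6.49% of all tested genes.

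Among RAS relatives, which share the GTPase fold, Rras (log2 -0.29, adjusted p = 0.0012) and Rras2 (log2 -0.51, adjusted p = 7.42e-05) fell in EpH4, and Mras rose in EpH4-AS (log2 0.42, adjusted p = 0.0235). Of 7 adaptors and exchange factors, which load RAS with GTP or bring the loading enzymes to receptors, 0 were called in EpH4. In EpH4-AS the adaptors Shc1 (log2 0.40, adjusted p = 0.000567) and Gab1 (log2 0.41, adjusted p = 0.0224) rose and the exchange factor Sos1 fell (log2 -0.28, adjusted p = 0.00533). The Gab1, Sos1 and Mras calls were each lost without either untreated EpH4-AS library or without the second exposed one.

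RAS GTPase-activating proteins switch RAS off. Of 5, 3 rose and 0 fell in EpH4, Rasa3 by 0.39, Dab2ip by 0.33 and Rasa2 by 0.22 on the log2 scale, and 0 were called in EpH4-AS. These 3 calls rested on the second exposed EpH4 library, without which 0 were made. That library was the higher of its pair for each of the 3 genes. In the test of the difference between lines only Rasa3 of the 5 was called (log2 -0.71, adjusted p = 0.00448).

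In the kinase relay 2 of 8 genes rose and 2 fell in EpH4, and 0 rose and 1 fell in EpH4-AS. Without the second untreated EpH4 library 0 fell in EpH4, and 1 fell without either exposed EpH4 or either untreated EpH4-AS library. Without the first untreated or the second exposed EpH4 library 1 rose. Ksr1, a scaffold for the relay, rose in EpH4 (log2 0.49, adjusted p = 0.000387) and fell in EpH4-AS (log2 -0.29, adjusted p = 0.0484). The EpH4-AS call was lost without any 1 of the 4 libraries of that line. Rps6ka1, which encodes a kinase that ERK activates, rose in EpH4 (log2 0.30, adjusted p = 0.0126). The RAF kinase gene Araf (log2 -0.18, adjusted p = 0.0188) and Map2k1, which encodes a MEK kinase (log2 -0.17, adjusted p = 0.0279), fell there. Between untreated lines Map2k1 was 645 CPM in EpH4-AS and 173 CPM in EpH4 (log2 1.90, adjusted p = 7.82e-14), and the second MEK gene, Map2k2, was also higher (log2 1.01). Of the 8 genes, 4 were called higher and 2 lower in that comparison, where 89.2% of all tested genes were called. The lower ones were Rps6ka2 (log2 -0.86) and Araf (log2 -0.17).

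Of 11 further feedback and phosphatase genes, 3 rose and 2 fell in EpH4, and 1 rose in EpH4-AS. Without the first exposed EpH4 library 1 fell. Spred3, a relative of the Sprouty genes, rose from 26.9 and 25.9 CPM to 38.4 and 42.1 CPM in EpH4 (log2 0.61, adjusted p = 5.14e-05). Dusp7, an ERK phosphatase, rose by 0.52 in EpH4 (adjusted p = 0.000262), while Spred1 fell by 0.25 (adjusted p = 0.00283) and Errfi1 by 0.23 (adjusted p = 0.00767). Dusp8, a phosphatase of JNK and p38, rose by 0.72 in EpH4-AS (adjusted p = 0.00143). Spred2, another Sprouty relative, had a log2 fold change of -0.15 in EpH4 and was not called (adjusted p = 0.0538). Between untreated lines Spred2 was lower in EpH4-AS, 22.3 CPM against 114 CPM (log2 -2.35, adjusted p = 7.23e-14), beside the lower Spry1. In that comparison 3 of the 11 genes were called higher and 7 lower, where 89.2% of all tested genes were called. Dusp14 (log2 0.92), Errfi1 (log2 0.55) and Dusp7 (log2 0.20) were the higher ones. Dusp9 had the log2 value of -5.14, from 0.214 CPM in EpH4-AS.

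Of 10 genes known to follow ERK activity, 4 rose and 1 fell with PM2.5 in EpH4, and 2 rose in EpH4-AS. Without the first untreated EpH4 library 2 fell there. Phlda1 went from 136 and 108 CPM to 181 and 231 CPM in EpH4 (log2 0.75, adjusted p = 0.000227), and the cell cycle gene Ccnd1 (log2 0.42) and the ETS factor gene Etv4 (log2 0.39) rose as well. Fosl1, which encodes an AP-1 subunit, rose in both lines, by 0.24 in EpH4 (adjusted p = 0.0155) and by 0.65 in EpH4-AS (adjusted p = 3.37e-05). Its EpH4 call was lost without the first untreated (adjusted p = 0.0977) or the second exposed library (adjusted p = 0.0595). Etv5, an ETS factor gene related to Etv4, fell in EpH4 (log2 -0.38, adjusted p = 0.000538). Ier3, an early response gene, went from 156 and 157 CPM to 514 and 554 CPM in EpH4-AS (log2 1.77, adjusted p = 6.6e-10), but from 605 and 630 CPM to 605 and 565 CPM in EpH4 (log2 -0.08, adjusted p = 0.338).

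Between untreated lines all 10 of these genes differed, 2 higher and 8 lower in EpH4-AS, where 89.2% of all tested genes differed, so the count is near the background. Egr1, an immediate early transcription factor gene, lay at 0.545 and 0.477 CPM in EpH4 and 292 and 304 CPM in EpH4-AS (log2 9.17, adjusted p = 4.6e-17). Etv4 was also higher (log2 2.06), while Etv5 (log2 -1.54), Phlda1 (log2 -1.65), Epha2 (log2 -1.32), Epha4 (log2 -4.53), Etv1 (log2 -0.74), Ccnd1 (log2 -0.73), Ier3 (log2 -1.98) and Fosl1 (log2 -0.19) were lower. On the log2(RPKM + 1) scale the Fosl1 difference was 0.00 and not called. Genes of this list thus moved in both directions between lines, as did the members.

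**Figure D4:**
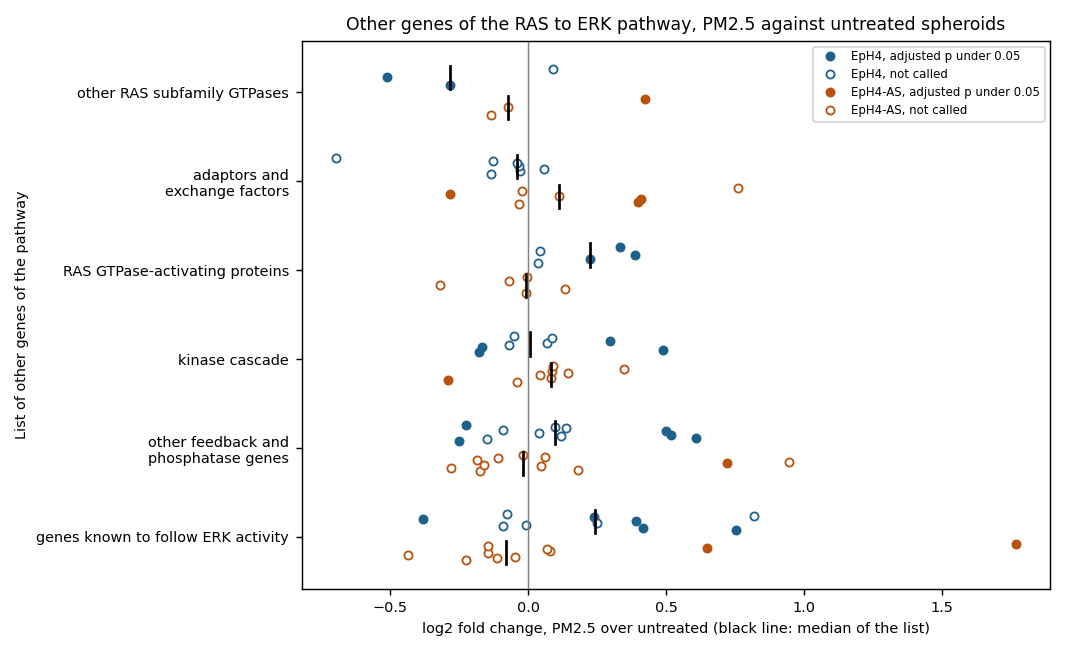
Log2 fold change of exposed over untreated spheroids (horizontal axis) for the 44 tested genes of 6 other lists of the pathway (vertical axis), in EpH4 (blue) and EpH4-AS (orange). Filled points passed an adjusted p of 0.05, and black lines are list medians. In EpH4, 12 genes lie filled above 0 and 7 below, and the point farthest right is Ier3 in EpH4-AS at 1.77.

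The genes whose pattern over the 8 libraries was most like each member were found by the root mean square difference of log2 CPM, each gene centred on its own mean, among 10198 genes. For Dusp5 these were Cdkn2b (0.08), Slc9a8 (0.09) and Zdhhc17 (0.09). Closest to Dusp6 was St3gal4 (0.02), to Dusp1 Tsc22d3 (0.06) and to Dusp4 Dynlt2b (0.05). Glis3 (0.09) was closest to Spry1, Kidins220 (0.08) to Spry2, Nedd4 (0.02) to Nras and Cuedc2 (0.04) to Hras. Spry4 was below the 5 CPM needed for this measure.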

How the data were processed

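RNA of 8 spheroid libraries, 2 for each line with and without PM2.5, was read from the deposited tables. Per the file headers the authors deposited raw counts of exon reads per gene, RPKM values, and total gene reads with exon reads in the tables per library. GRCm39 is named in the submitters' processing notes. The aligner, the counter, its strand setting and the annotation are not named there. Groups come from the labels.

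In R 4.3.3, counts of all genes were filtered with filterByExpr, scaled by TMM and fitted with edgeR 4.0.16 (quasi-likelihood, 4 groups, 4 residual degrees of freedom). Tested genes held 99.964% of counts. The coefficient of variation between libraries, from the common dispersion, was 4.67%. The 5 contrasts were the exposure in EpH4, the exposure in EpH4-AS, the line difference untreated, the line difference exposed, and the interaction. Two-sided p values were adjusted over all tested genes per contrast by Benjamini-Hochberg, with a threshold of 0.05. Standard errors were derived from each log2 fold change and its F statistic. Intervals are at 95%. Log2 CPM for like patterns used a prior count of 2.

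The members, the lists and the rule for names were chosen with earlier results of these data known. Named were the 9 members, up to 4 genes per list and contrast with the smallest adjusted p past the threshold, the genes known to follow ERK activity, and the 3 genes most like a member. A few list genes are not reported here and stand in no list count. The fits were tested on simulated counts.

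Alternatives were the Wald test of DESeq2 1.42.0, DESeq2 size factors in edgeR, plain library totals, no filter on low counts, 1 CPM in 2 libraries, a replicate block and the 2 groups alone. Further ones were limma-trend (limma 3.58.1) on log2(RPKM + 1) and log2(RPKM + 0.1) at a minimum of 0.5 RPKM, and on log2(RPKM + 1) without it. Each library was also left out, where a lone library was assumed to vary like the others. Chosen after seeing the data were fits without mitochondrially encoded genes, with total gene reads, with EpH4 thinned to the mean EpH4-AS total, and with a crossed block.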

Additional observations from a re-analysis of the deposited data

Results flagged for a closer look

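Of the 9 members and 44 list genes tested, 17 responded to PM2.5 differently in EpH4-AS and EpH4 by the test of that difference (edgeR quasi-likelihood, Benjamini-Hochberg over all genes), which called 14.1% of all tested genes. Values below are log2. For Dusp5 the difference was 0.82, between -0.41 in EpH4 and 0.40 in EpH4-AS. Ier3 differed by 1.85, between -0.08 in EpH4 and 1.77 in EpH4-AS.

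Among genes of the feedback and ERK-following lists, Phlda1 differed by -0.98 (0.75 in EpH4, -0.22 in EpH4-AS), Spred3 by -0.89 (0.61 and -0.28) and Dusp7 by -0.68 (0.52 and -0.16). Dusp8 differed by 0.68 (0.04 in EpH4, 0.72 in EpH4-AS), Ccnd1 by -0.53 (0.42 and -0.11) and Etv5 by 0.45 (-0.38 and 0.07). Fosl1 differed by 0.41 (0.24 and 0.65), Spred2 by 0.33 (-0.15 and 0.18) and Etv4 by -0.31 (0.39 and 0.08). For Egr1 the difference was -0.96 (0.82 in EpH4, -0.15 in EpH4-AS). Its EpH4 libraries lay at 0.477 to 0.914 CPM.

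Among the relay and its switches, Ksr1 differed by -0.78 (0.49 in EpH4, -0.29 in EpH4-AS), Rasa3 by -0.71 (0.39 and -0.32) and Rras2 by 0.44 (-0.51 and -0.07). Shc1 differed by 0.43 (-0.03 and 0.40) and Map2k1 by 0.25 (-0.17 and 0.08). The Egr1 call was lost without any 1 of the 8 libraries. The Etv4, Map2k1 and Spred2 calls were lost without some libraries of each line, and those of Dusp8, Etv5 and Fosl1 without 1 or another EpH4-AS library.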

How the results depend on the processing

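The count of 5 members called for PM2.5 in EpH4 was 2 with limma-trend on log2(RPKM + 1) and no filter. For PM2.5 in EpH4-AS, 1 as reported, it was 3 with library totals, 3 without the filter, 3 on log2(RPKM + 1), 2 on log2(RPKM + 0.1), 5 with the 2 groups alone and 3 with the crossed block. Leaving out each library gave 0 to 4 there and 1 to 3 for the interaction.

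Same-numbered libraries did not deviate together, with correlations from -0.10 to 0.06 over 6 pairs of groups, so the numbers were not taken as pairs. The replicate block left 5, 1, 8, 8 and 1 members called over the 5 contrasts. It called 3258, 1252, 12151, 12118 and 1580 genes in all, and the crossed block 3366, 1293, 12171, 12136 and 1640.

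Some log2 values changed sign. For PM2.5 in EpH4, Dusp4 was 0.00266 with library totals, 4.4e-05 on log2(RPKM + 0.1), 0.0205 with total gene reads and -0.101 to 0.0917 with libraries left out. Spry4 was -0.259 after thinning and -0.0710 to 0.132 with libraries left out. Spry1 in EpH4-AS was -0.320 to 0.193 with libraries left out, and the Spry2 interaction -0.00627 to 0.341. Between untreated lines Spry4 was 0.0468 with total gene reads and -0.529 to 0.0390 with libraries left out. In the 3 RPKM fits, log2(RPKM + 1) with and without the filter and log2(RPKM + 0.1) with it, untreated Fosl1 was 0.00352 to 0.00355. Araf was 0.0254 to 0.0266 untreated, and Ier3 0.0321 to 0.0322 exposed. With total gene reads in the edgeR test, exposed Ier3 was 0.130 (adjusted p = 0.0342), against -0.13 as reported (adjusted p = 0.0403). It was thus called in the opposite direction. Exposed Rasal2 was 0.122 and not called (adjusted p = 0.105), against a called -0.25 as reported (adjusted p = 0.00394).

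Library totals called 715 genes higher and 916 lower for PM2.5 in EpH4-AS, against 877 and 652, and 838 and 1100 for the interaction, against 1042 and 890. DESeq2 called 2330, 1071 and 1324 genes for PM2.5 in EpH4, in EpH4-AS and for the interaction, against 3726, 1529 and 1932. With the 2 groups alone, PM2.5 in EpH4-AS had 2995 calls. Depth limits Spry4, at 9 to 24 counts per library, and the 2 libraries per group limit all tests.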
